A study of Mus musculus with 12 samples.

Results

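The genes described here are abundant genes of the actin cytoskeleton and, beside them, Crip1, in all 10 of the 54146 genes in the table: Actb, Actg1, Tmsb4x, Tmsb10, Pfn1, Cfl1, Tagln2, Tpm4, Myl6 and Crip1. They were taken by name, 1 row of the table each, and were chosen by their high TPM in these same libraries, with earlier results known. Their levels and the differences between groups are therefore a description of a picked set, and the adjusted p-values printed with them come from a fit over all genes and lend no independent support. All 10 passed the filter on low values, which asked for a TPM of 1 or more in 3 or more libraries, as did 13002 genes in all. TPM is the share of a gene's transcripts among all transcripts of a library, scaled to a fixed total and corrected for gene length, so levels can be set side by side between genes.

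The 12 libraries were made from D2A1 cells, a mouse mammary carcinoma line carrying H2B-GFP, sorted from the lungs of female mice after injection into the tail vein. Dormant cells were GFP positive and kept CellVue Claret, a membrane dye that fades as cells divide, and growing cells were GFP positive and had lost it. WT hosts were the controls, which the legends of the study give as Tgfbr2 floxed mice, while the labels and the sequencing methods say only WT. KO hosts lacked Tgfbr2, the type II receptor for TGF-β, in myeloid cells, where Cre was driven by the Lysozyme 2 promoter. There were 3 libraries in each of the 4 groups (dormant cells of WT hosts, dormant cells of KO hosts, and growing cells of each host, called dormant WT, dormant KO and so on), and the comparisons ask how the RNA of dormant and growing cells differed and whether that depended on the host. The deletion was in host cells and not in the tumour cells, so Tgfbr2 RNA in these libraries checks no label. The same tumour line was given to every host. The libraries of a group came from separate mice by the legends of the study, although the labels do not state it, so p-values measure the spread between these libraries. Every WT library was in library batch 1 and every KO library in library batch 2, so host and batch cannot be told apart, whereas dormant and growing libraries of 1 host lie within a batch.

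Actin monomers assemble into filaments that carry the shape, adhesion and movement of a cell. Beta thymosins hold monomers in reserve, profilin delivers monomers to growing filament ends, cofilin severs old filaments, and tropomyosins and transgelins bind along filaments and steady them. Myosin II, of which Myl6 is the essential light chain, pulls on filaments. Many of these genes are targets of serum response factor, which binds the CArG box and is regulated by the pool of free actin.

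The dormant KO libraries stood apart from the rest in their cell type markers as well as in the genes described here. The summed TPM of 8 alveolar type 2 markers was 40072 to 42411 in dormant KO libraries and at most 465.1 in any other library. The 6 mesothelial markers summed to 11429 to 12864 in dormant KO libraries and to at most 478.62 elsewhere. The 5 erythroid markers summed to 50831 to 56264 in dormant KO, 8988 to 13031 in dormant WT, and 6196 to 7791 in growing libraries. The macrophage list summed to 3180 to 3288 in dormant KO, 873 to 1571 in dormant WT, 118 to 169 in growing KO and 35.5 to 72.2 in growing WT, and the neutrophil list to 4037 to 4353, 332 to 929, 116 to 141 and 60.8 to 88.4 in the same order. In dormant KO against dormant WT, 7 of 8 alveolar type 2, 6 of 6 mesothelial, 3 of 7 macrophage, 3 of 4 neutrophil and 8 of 9 tested T and NK cell markers were called higher, where 12.9% of all tested genes were, and the fourth tested neutrophil marker, Mmp9, was called lower. Some of these markers, among them Ncr1, Cd3g, Slc34a2, Lamp3 and Lrrn4, passed the filter only through the dormant KO libraries, so these counts are a description and lend no support. The sum of the mammary tumour list was lower, at 2136 to 2717 in dormant KO against 30482 to 41246 in the other libraries, and Spp1 was the largest part of that sum. Of its 8 markers 2 were called lower and 3 higher in dormant KO against dormant WT, with a median difference of 0.63, and Krt19 was 252 to 418 TPM in dormant KO and at most 0.59 in dormant WT. Within that list Krt8 and Krt18 were present in all 12 libraries, whereas Krt7 was at 0 in all 6 WT libraries and passed the filter only through dormant KO. The part of these marker differences in the results below was not tested, and in such sorted samples a different mixture of cells and a different level per cell cannot be told apart.

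**Figure D1:**
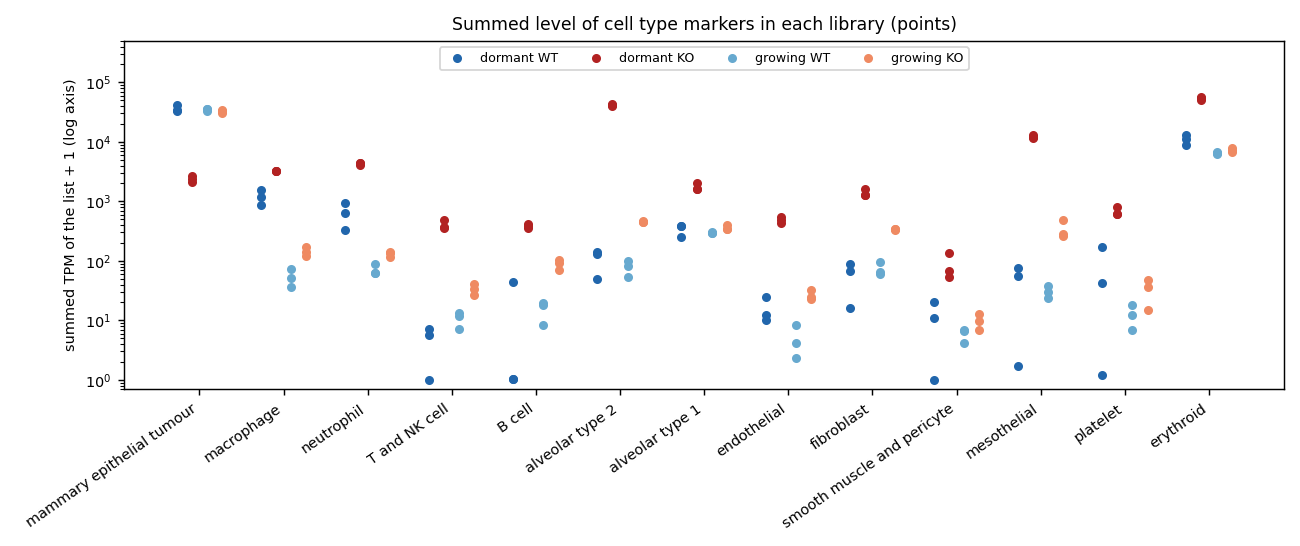
Summed TPM of each cell type marker list (log axis, 1 added) in each of 12 libraries, coloured by group. The dormant KO libraries lie above the others for every host list, for alveolar type 2 at 40072 to 42411 TPM, and below them for the mammary tumour list, at 2136 to 2717 TPM.

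In the mouse build GRCm38 with GENCODE M21 annotation, the 10 genes lie on 9 chromosomes, all as protein-coding genes. Actb is at chr5:142903115-142906754 on the minus strand, Tmsb4x at chrX:167207093-167209315 on the minus strand and Crip1 at chr12:113146316-113153879 on the plus strand. Tmsb4x, Pfn1 and Crip1 shared no 50-base stretch with the transcript of any other gene. Of the 50-base stretches of Actg1, 37.4% recurred in other genes, Actb among them, as did 27.0% of those of Tmsb10, 11.7% of Tpm4, 9.12% of Actb, 8.38% of Myl6, 7.25% of Cfl1 and 0.56% of Tagln2, so the authors' estimate had to divide such reads and these levels are less certain. Cfl1 and Tpm4 also overlap genes on the opposite strand, and whether counting used strand is not given in the sources used here.

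The promoter windows of the 2 genes with the largest differences and of Actg1, which differed least between the dormant groups, are shown because these genes were picked together but did not share a pattern. They run from 250 bases before to 50 after the start in RefSeq (GRCm38.p6), each written 5′ to 3′ on the gene's own strand, with capitals marking a CArG box or the letters CCCCACCC, the latter in the KLF4 motif that the study dealt with. Tmsb4x is from chrX:167209169-167209468 (minus strand), Crip1 from chr12:113151762-113152061 (plus strand) and Actg1 from chr11:120348446-120348745 (minus strand).
Tmsb4x promoter: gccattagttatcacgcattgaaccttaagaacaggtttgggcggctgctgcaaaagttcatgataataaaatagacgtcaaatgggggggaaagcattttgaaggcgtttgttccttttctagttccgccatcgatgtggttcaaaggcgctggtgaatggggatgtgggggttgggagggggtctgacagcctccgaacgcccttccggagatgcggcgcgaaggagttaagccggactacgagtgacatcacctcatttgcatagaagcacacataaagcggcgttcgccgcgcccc
Crip1 promoter: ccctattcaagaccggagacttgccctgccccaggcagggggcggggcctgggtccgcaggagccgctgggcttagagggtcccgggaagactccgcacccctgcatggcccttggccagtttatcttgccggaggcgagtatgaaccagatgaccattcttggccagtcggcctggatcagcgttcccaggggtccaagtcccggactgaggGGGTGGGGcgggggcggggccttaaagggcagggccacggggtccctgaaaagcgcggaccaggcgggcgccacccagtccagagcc
Actg1 promoter: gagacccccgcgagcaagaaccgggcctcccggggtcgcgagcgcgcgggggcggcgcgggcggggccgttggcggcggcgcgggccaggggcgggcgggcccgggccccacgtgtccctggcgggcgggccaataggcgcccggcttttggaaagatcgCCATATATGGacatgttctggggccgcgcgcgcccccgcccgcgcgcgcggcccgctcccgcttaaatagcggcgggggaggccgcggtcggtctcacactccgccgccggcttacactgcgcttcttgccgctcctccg
Both strands were searched. A CArG box began 90 bases before the start of Actg1 and 50 before the start in 1 of 2 Myl6 windows, and 1.63% of 32851 windows of the same length hold one. CCCCACCC lay on the opposite strand 37 bases before the start of Crip1 (read as GGGTGGGG above) and in 2 of 3 Tmsb10 windows, and 9.99% of all windows hold it. Neither set of letters was in the Tmsb4x window. A match is only a description, and of the 10 genes 9 had a window, Actb being the other.

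The 10 genes together made up 6.05% ± 0.382 of all TPM in dormant KO libraries (SD, n = 3), against 2.52% ± 0.248 in dormant WT, 2.45% ± 0.131 for growing WT and 2.42% ± 0.187 for growing KO. The excess in dormant KO lay in Crip1 and Tmsb4x. The other 8 genes made up 1.15% ± 0.0303 there, below the 2.09% ± 0.207 of dormant WT, 2.14% ± 0.139 of growing WT and 2.06% ± 0.181 of growing KO. Crip1 alone took 3.22% ± 0.283 of TPM in dormant KO and between 0.302% and 0.304% on average in each of the other groups.

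**Figure D2:**
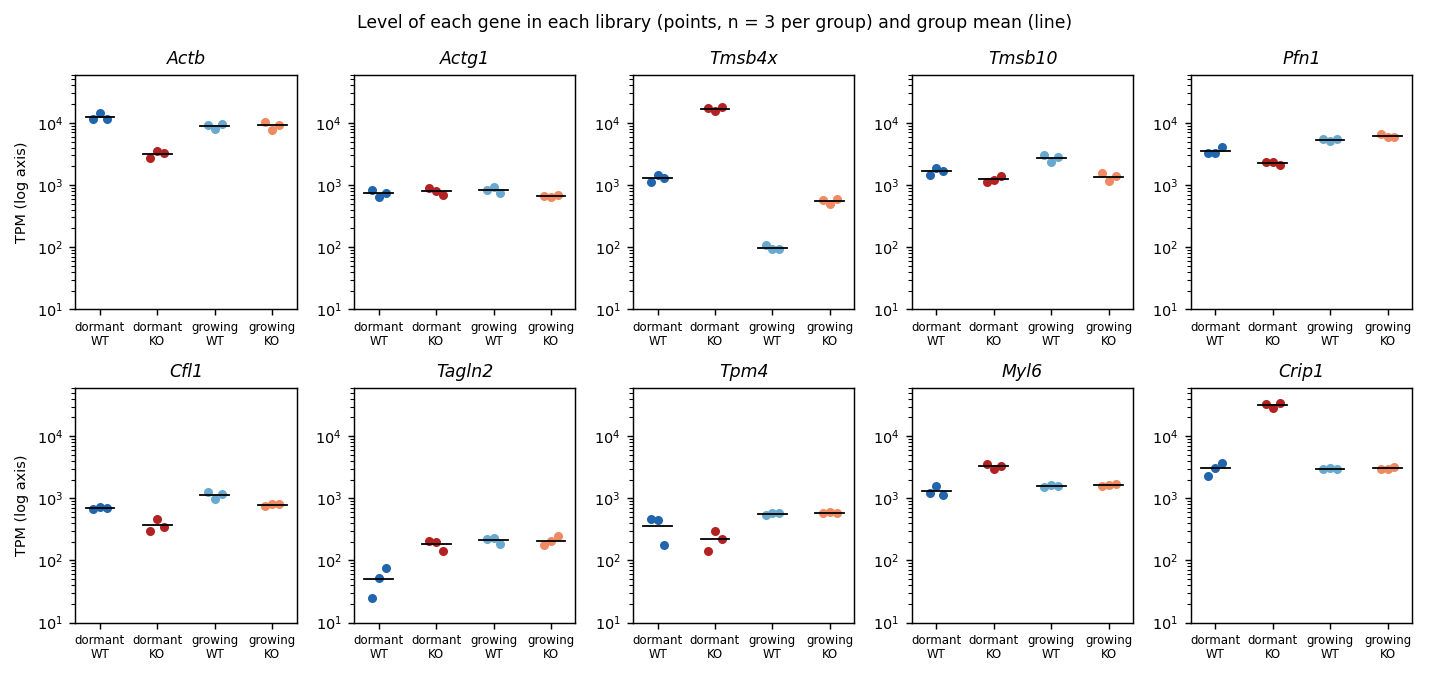
TPM (log axis) of the 10 genes in each library, as points, with the group mean as a line (n = 3 per group). Tmsb4x differs between all 4 groups, from 92.2 TPM in a growing WT library to 17941 in a dormant KO library, and Crip1 and Myl6 are set apart in dormant KO only.

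The order of the genes differed between groups. In dormant WT libraries Actb came first at 12516 ± 1832 TPM, followed by Pfn1 at 3523 ± 512 and Crip1 at 3041 ± 728, whose ranges overlapped. Tmsb10 (1661 ± 225), Myl6 (1308 ± 234) and Tmsb4x (1303 ± 167) came next and overlapped, then Actg1 (739 ± 96.3) and Cfl1 (697 ± 33.9), which overlapped too, then Tpm4 (364 ± 163) and Tagln2 (50.6 ± 25.6). In dormant KO libraries Crip1 (32151 ± 2830 TPM) and Tmsb4x (16845 ± 1251) stood above Myl6 (3265 ± 285) and Actb (3180 ± 389), which overlapped. Below them were Pfn1, Tmsb10 and Actg1, each apart from the next, and then Cfl1, Tpm4 and Tagln2, whose neighbours overlapped. Among all genes Crip1 ranked 2nd in each of the dormant KO libraries and Tmsb4x 6th. In growing WT libraries the order was Actb (8959 ± 859 TPM), Pfn1 (5393 ± 232), Crip1 (3015 ± 87.3), Tmsb10 (2716 ± 363), Myl6, Cfl1, Actg1, Tpm4, Tagln2 and, last, Tmsb4x (97.9 ± 9.55), and only Crip1 and Tmsb10 overlapped. The growing KO order was Actb (9190 ± 1351 TPM), Pfn1 (6144 ± 389), Crip1 (3030 ± 111), Myl6, Tmsb10, Cfl1, Actg1, Tpm4, Tmsb4x (554 ± 57.8) and Tagln2, and only Tpm4 and Tmsb4x overlapped.

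Actb, the cytoplasmic beta-actin that is the bulk of non-muscle actin and is often used to normalise, was lowest in dormant KO. Its TPM was 2753, 3515 and 3272 in the dormant KO libraries and 11491, 14632 and 11426 in the dormant WT libraries. In growing libraries it was 9145, 8023 and 9710 for WT and 10460, 7770 and 9340 for KO hosts. The dormant KO libraries lay below all 9 others, the growing groups overlapped, and dormant WT lay above growing WT. On the log2(TPM + 1) scale, on which all differences here are given, Actb fell by 1.97 ± 0.131 (SE) in dormant KO against dormant WT, 3.93-fold lower (limma, adjusted p = 1.7e-06), and by 1.53 against growing KO (adjusted p = 2.1e-05). The dormant WT libraries were 0.48 above growing WT, under the threshold of 1 in size (limma, adjusted p = 0.046), and growing KO against growing WT gave 0.03 (95% interval -0.26 to 0.32).

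Actg1, the gamma-actin that shares the cytoplasm with beta-actin, kept a narrow range of 640 to 940 TPM over all 12 libraries. Its TPM was 839, 646 and 732 in dormant WT, 888, 802 and 703 in dormant KO, 831, 940 and 739 in the growing WT group, and 674, 640 and 696 in the growing KO group. The dormant groups overlapped, and their difference was 0.11 (95% interval -0.19 to 0.41, limma adjusted p = 0.62). No comparison called Actg1. The ratio of Actg1 to Actb within a library, which does not depend on how libraries are scaled to each other, was 0.0604 ± 0.0148 in dormant WT, 0.255 ± 0.0587 in dormant KO, 0.0947 ± 0.0208 for growing WT and 0.0738 ± 0.00901 for growing KO. In dormant KO libraries it was 0.323, 0.228 and 0.215, above every other library, of which the highest was 0.117.

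Tmsb4x, thymosin beta 4, the main actin monomer-sequestering protein of many cells and abundant in leukocytes, separated all 4 groups. Its TPM was 17113, 15482 and 17941 in dormant KO and 1131, 1464 and 1315 in dormant WT. It was 582, 487 and 593 in growing KO and 108.9, 92.6 and 92.2 in growing WT, so no 2 groups overlapped. Dormant KO libraries were 12.96-fold above dormant WT (log2 difference 3.70 ± 0.126, limma adjusted p = 1.5e-08) and 30.4-fold above growing KO (4.93 ± 0.126, adjusted p = 1.2e-09). Dormant WT libraries were 13.2-fold above growing WT (3.72 ± 0.126, limma adjusted p = 2.2e-08), and growing KO 5.61-fold above growing WT (2.49 ± 0.126, adjusted p = 5.0e-06). The sums of the macrophage and neutrophil lists, carried mostly by Lyz2 and by S100a8 and S100a9 in the dormant libraries, were in the same order of groups as Tmsb4x, with 3 of 7 macrophage and 2 of 4 neutrophil markers called higher in dormant WT against growing WT (1.85% of all genes), and 1 of 7 macrophage markers in growing KO against growing WT (0.715% of all genes). The erythroid list was in that order too, at 50831 to 56264 TPM in dormant KO and 8988 to 13031 in dormant WT. It was 6881 to 7791 in growing KO and 6196 to 6851 in growing WT. Single macrophage and neutrophil markers departed from that order, as Mrc1 was 16.6 to 31.2 TPM in dormant WT and 7.02 to 20.8 in dormant KO, and Mmp9 was highest in growing KO at 20.5 to 32.4. Adgre1 was 9.17, 0 and 0.77 TPM in dormant WT and 0.37, 0.04 and 4.36 in dormant KO. Csf1r was 3.59, 0 and 0.14 TPM against 2.62, 2.28 and 6.97, so the dormant groups of both overlapped and were out of that order. The T and NK cell list did not follow it either, with sums of 356 to 480.3 TPM in dormant KO, 25.3 to 39.7 in growing KO, 6.22 to 12.1 in growing WT and 0 to 6.09 in dormant WT, nor did the B cell list, with 358 to 410.2, 68.3 to 102.5, 7.21 to 18.3 and 0.02 to 43.1 in the same order. Among the defining macrophage markers Itgax was at 0 in all dormant WT libraries and Marco in all growing libraries, whereas Lyz2 was 782 to 1407 TPM in dormant WT and 26.0 to 61.4 in growing WT.

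Tmsb10, thymosin beta 10, is the close relative of Tmsb4x and binds monomers in the same way. Its TPM was 1440, 1889 and 1655 in dormant WT, 1107, 1198 and 1398 in dormant KO, 3000, 2307 and 2841 in the growing WT group, and 1538, 1147 and 1390 in the growing KO group. Growing WT lay above each of the other groups, and the dormant KO and growing KO libraries overlapped. The only call was growing KO against growing WT, where it fell by 1.001 ± 0.146, just past the threshold (limma, adjusted p = 0.0059). That call was lost without growing WT library 1 (-0.92), growing WT library 3 (-0.96) or growing KO library 2 (-0.88). Dormant KO against dormant WT gave -0.43, which did not pass the test (adjusted p = 0.055 by limma) and was 0.09 after median-ratio scaling.

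The balance of the 2 thymosins spanned a wide range. The ratio of Tmsb10 to Tmsb4x was 27.5, 24.9 and 30.8 in growing WT libraries, 2.64, 2.35 and 2.35 in growing KO, 1.27, 1.29 and 1.26 in dormant WT, and 0.0647, 0.0774 and 0.0779 in dormant KO. The summed share of both was 0.297% ± 0.0392 of TPM in dormant WT, 0.281% ± 0.0370 in growing WT, 0.191% ± 0.0250 in growing KO and 1.81% ± 0.134 in dormant KO. Dormant WT and growing WT libraries thus held overlapping shares of the pair, with Tmsb10 the larger in both.

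Pfn1, profilin 1, was highest in growing cells of both hosts. Its TPM was 3215, 3240 and 4114 in dormant WT, 2317, 2379 and 2084 in dormant KO, 5477, 5131 and 5571 in the growing WT group, and 6593, 5918 and 5920 in the growing KO group. No 2 groups overlapped. Pfn1 fell by 1.44 ± 0.093 in dormant KO against growing KO, 2.72-fold lower (limma, adjusted p = 2.6e-06). It was 0.62 lower in dormant WT than in growing WT (adjusted p = 0.0022 by limma) and 0.63 lower in dormant KO than in dormant WT (adjusted p = 4.7e-04), both under the threshold of 1. After quantile normalization the first of these was called (-1.02). Under the alternatives the second ran from -0.69 to -0.11, with adjusted p by limma up to 0.50. The ratio of Tmsb4x to Pfn1, the sequestering against the delivering protein, was 0.374 ± 0.0691 in dormant WT, 7.50 ± 1.05 in dormant KO, 0.0182 ± 0.00167 for growing WT and 0.0902 ± 0.00904 for growing KO, and was computed after these values had been seen.

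**Figure D3:**
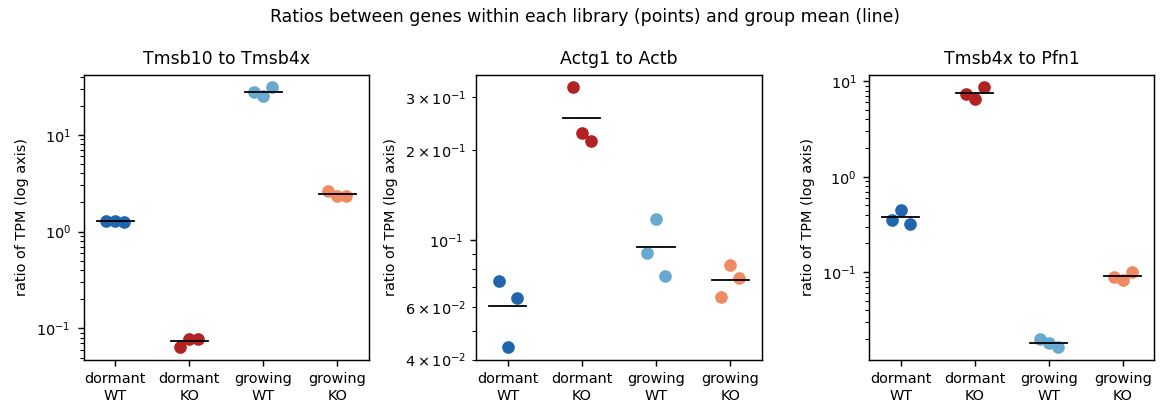
Ratios of TPM within each library (log axes) for Tmsb10 to Tmsb4x, Actg1 to Actb and Tmsb4x to Pfn1, with points for libraries and lines for group means (n = 3). The Tmsb10 to Tmsb4x ratio runs from 24.9 or more in growing WT to 0.0779 or less in dormant KO with no overlap between groups.

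Cfl1, cofilin 1, was lowest in dormant KO. Its TPM was 662, 730 and 699 in dormant WT, 292, 469 and 341 in dormant KO, 1249, 990 and 1191 in the growing WT group, and 740, 809 and 797 in the growing KO group, with no overlap between any 2 groups. It fell by 1.11 ± 0.165 in dormant KO against growing KO (limma, adjusted p = 6.3e-04), a call lost without dormant KO library 1 (-0.96) and after quantile normalization (-0.84). Against dormant WT it was 0.95 lower (adjusted p = 0.0014 by limma), under the threshold, and past it without dormant KO library 2 (-1.14). Under the alternatives that difference came down to -0.43 at the least, with adjusted p by limma up to 0.072.

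Tpm4, a non-muscle tropomyosin, was uneven among dormant libraries. Its TPM was 464, 452 and 176 in dormant WT, 140, 300 and 219 in dormant KO, 546, 579 and 579 in the growing WT group, and 571, 612 and 578 in the growing KO group. Each dormant library lay below all growing libraries, and the dormant groups overlapped. It fell by 1.48 ± 0.352 in dormant KO against growing KO (limma, adjusted p = 0.012), a call lost without dormant KO library 1 (-1.19, adjusted p = 0.054). The dormant groups differed by -0.67 (95% interval -1.44 to 0.11), and by -1.12 without dormant WT library 3, which was then called (limma, adjusted p = 0.0076).

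Tagln2, transgelin 2, was the lowest of the 10 genes in dormant WT. Its TPM was 24.6, 51.3 and 75.8 there, 204, 199 and 142 in dormant KO, 217, 229 and 183 in the growing WT group, and 175, 206 and 246 in the growing KO group. The dormant WT libraries lay below all 9 others, which overlapped. It fell by 2.16 ± 0.361 in dormant WT against growing WT, 4.48-fold lower (limma, adjusted p = 0.0042), and was 1.94 ± 0.361 above dormant WT in the dormant KO libraries (adjusted p = 0.0021). Dormant KO against growing KO gave -0.21 (95% interval -0.999 to 0.58).

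Myl6 was highest in dormant KO. Its TPM was 3506, 2950 and 3340 there and 1210, 1575 and 1139 in dormant WT. It was 1545, 1615 and 1578 in the growing WT and 1600, 1623 and 1702 in the growing KO libraries. The 9 libraries outside dormant KO stayed between 1139 and 1702, below all 3 dormant KO libraries. The difference between dormant groups was 1.33 ± 0.112, 2.51-fold (limma, adjusted p = 9.6e-06). Dormant KO against growing KO gave 0.99, just under the threshold (adjusted p = 1.2e-04 by limma), and passed it without dormant KO library 2 (1.06) or growing KO library 3 (1.02).

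Crip1, cysteine-rich intestinal protein 1, is a small LIM-domain protein. Its TPM was 33487, 28900 and 34064 in dormant KO and 2304, 3059 and 3761 in dormant WT. It was 2993, 3112 and 2942 in the growing WT and 2958, 2974 and 3157 in the growing KO libraries. The 9 libraries outside dormant KO overlapped, and dormant KO stood above all of them. Dormant KO libraries were 10.8-fold above dormant WT (log2 difference 3.43 ± 0.135, limma adjusted p = 4.4e-08) and 10.6-fold above growing KO (3.40 ± 0.135, adjusted p = 4.7e-08). Dormant WT against growing WT gave -0.02 (95% interval -0.31 to 0.28), and growing KO against growing WT gave 0.01 (-0.29 to 0.30).

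Over the 10 genes, dormant KO against dormant WT called 4 higher (Tmsb4x, Crip1, Tagln2 and Myl6), where 12.9% of all tested genes were called higher, and 1 lower (Actb), where 9.39% were. Libraries of the 2 groups did not overlap for 8 of the 10 genes, against 31.5% of all genes. The median difference was -0.16 over the 10 genes and 0.17 over all genes. Median-ratio scaling moved the all-gene median to 0.50 and quantile normalization to -0.14, and the same 5 genes were called under both. The split of all calls was 57.9% higher as deposited, 74.0% after median-ratio scaling and 50.1% after quantile normalization.

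Growing KO against growing WT called Tmsb4x higher, where 0.715% of all genes were called higher, and Tmsb10 lower, where 0.261% were. The groups did not overlap for 5 of 10 genes, against 23.9% of all. The medians were 0.02 over the 10 genes and 0.02 over all.

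Dormant WT against growing WT called Tmsb4x higher, where 1.85% of all genes were called higher, and Tagln2 lower, where 5.67% were. The groups were apart for 7 of 10 genes, against 26.6% of all. The medians were -0.45 and -0.35. Quantile normalization moved the all-gene median to 0.04. Of all calls 24.6% were higher as deposited, 29.1% after median-ratio scaling and 50.6% after quantile normalization. The dormant WT libraries had fewer genes above 0 (11325 to 13242) than the others (13406 to 15315) and the lowest sample weights in limma (0.196 to 0.309, against 0.699 to 2.78). With those weights in the fit both calls were kept.

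Dormant KO against growing KO called 2 genes higher (Tmsb4x and Crip1), where 8.31% of all were, and 4 lower (Actb, Pfn1, Cfl1 and Tpm4), where 9.48% were. The groups were apart for 8 of 10 genes, against 44.7% of all. The medians were -0.17 and -0.32. A list of 14 widely expressed reference genes had a median of -0.93 in this comparison, with 3 called lower and 0 higher. After median-ratio scaling, which moved the all-gene median to 0.09, all 4 lower calls were lost (Actb -0.93, Pfn1 -0.85, Cfl1 -0.52 and Tpm4 -0.89) and Myl6 was called higher at 1.58. The share of all calls that were higher was 46.7% as deposited, 69.2% after median-ratio scaling and 56.9% after quantile normalization.

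**Figure D4:**
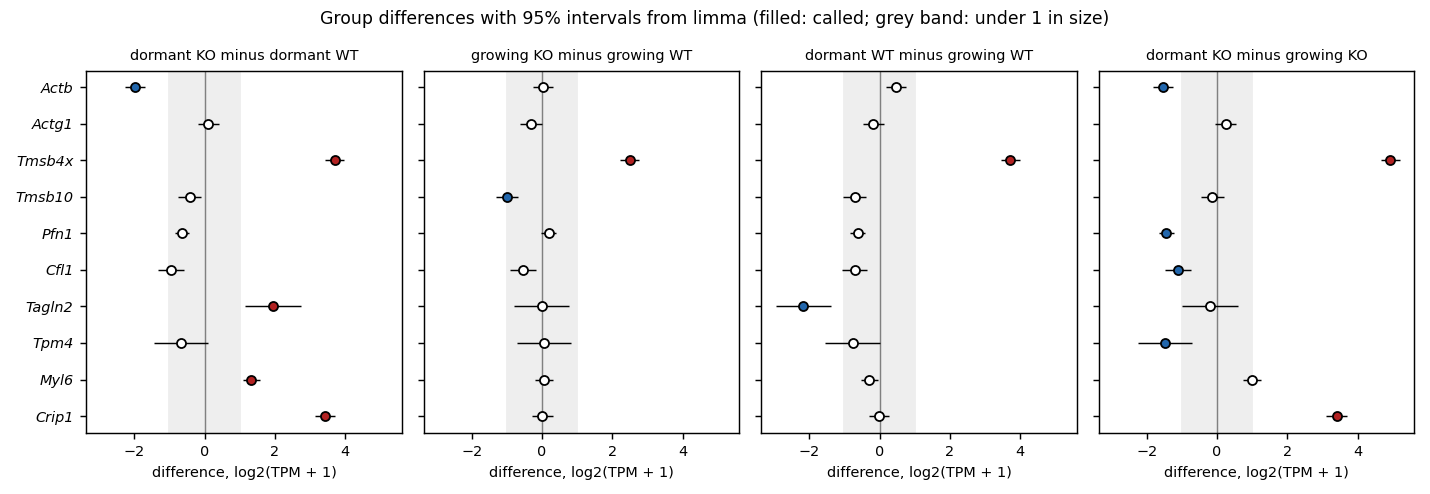
Differences on the log2(TPM + 1) scale with 95% intervals from limma for the 10 genes in each of 4 comparisons. Filled points were called (adjusted p at most 0.05 and at least 1 in size, red higher, blue lower), and the grey band marks differences under 1. Tmsb4x is filled in every panel, from 2.49 to 4.93.

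The difference between the hosts' dormant against growing differences was tested as an interaction, in which host and batch again cannot be told apart. It called 4 genes higher (Crip1, Tagln2, Myl6 and Tmsb4x), where 6.18% of all genes were, and 1 lower (Actb), where 3.91% were. The median was 0.50 over the 10 genes and 0.16 over all. Of all calls 61.2% were higher as deposited, 79.1% after median-ratio scaling and 55.4% after quantile normalization. Crip1 gave 3.42 ± 0.191 (adjusted p = 3.7e-06), with a dormant against growing difference of 3.40 in KO and -0.02 in WT hosts, by limma. Actb gave -2.005 ± 0.186 (adjusted p = 9.0e-05 by limma), from -1.53 in KO and 0.48 in WT hosts. Tagln2 gave 1.96 ± 0.510 (adjusted p = 0.031 by limma), and the call was lost without either of dormant KO libraries 1 (1.86) and 2 (1.88), any growing WT library (1.89 to 2.05) or growing KO library 1 (1.84) or 2 (1.95). Myl6 gave 1.28 ± 0.159 and Tmsb4x 1.21 ± 0.178, the latter 0.58 and not called after quantile normalization. Calls were gained for Tmsb10 after median-ratio scaling (1.09, limma adjusted p = 0.019) and for Tpm4 without dormant WT library 3 (-1.17, adjusted p = 0.045). A single gene taken by itself, 3 libraries against 3, cannot go below p = 0.1 in an exact two-sided permutation test.

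Lists of 114 other actin cytoskeleton genes, in 14 families, were read in the same fit, of which 98 passed the filter. In dormant KO against dormant WT 16 of 98 were called higher, where 12.9% of all genes were, and 12 lower, where 9.39% were. These shares lay near those of all genes, and the median difference was 0.11, against 0.17 over all genes. Of 4 muscle actin isoforms 3 were tested and 2, Acta2 and Actc1, were called higher. Actg2 was 0.35, 0 and 4.26 TPM in dormant KO, overlapped dormant WT and was not called, and Acta1 was 0, 7.54 and 0 in dormant KO. Acta2, smooth muscle actin, was listed at 0 in all dormant WT libraries, and the dormant KO libraries had 27.5, 81.3 and 13.8 TPM (limma, adjusted p = 2.1e-04). Tagln, the smooth muscle relative of Tagln2, was listed at 0 in all dormant WT libraries, and the dormant KO libraries had 35.5, 42.9 and 36.7 TPM. Outside dormant KO it reached 1 TPM in growing WT library 2 only (2.8), so it passed the filter through dormant KO. Actc1 and the formin Fmnl1 passed in the same way, and the higher calls of these genes lend no support. Acta2 and Tagln also belong to the smooth muscle and pericyte list, which summed to 51.7 to 132 TPM in dormant KO and 0 to 19.1 in dormant WT. Of its 8 markers 4 were tested and 2, Acta2 and Tagln, were called higher. Of the others, Cnn1 was at 0 in all 12 libraries, and Myh11 at 0 in dormant WT and 0.11 to 1.06 in dormant KO, whereas Pdgfrb was 7.22, 3.95 and 0 in dormant WT against 0.71, 3.38 and 0.08, and Cspg4 was 15.1 in dormant WT library 2 and at most 0.27 in dormant KO. Tmsb15b1, a further beta thymosin, was listed at 0 in all dormant WT libraries, whereas dormant KO libraries had 51.0, 41.8 and 24.1 TPM. It was the only call among 3 tested further beta thymosins, and Tmsb15l was 142.4 TPM in dormant WT library 2, 0 in the other dormant WT libraries and at most 21.9 in dormant KO.

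Some relatives of Myl6 and Crip1 were called higher in the same comparison, and the family counts that follow stand beside 12.9% of all genes called higher and 9.39% lower. Of 7 tested myosin II genes 3 were called in dormant KO against dormant WT, all higher, among them the regulatory light chains Myl12a (1.37 ± 0.113) and Myl12b (1.75 ± 0.163), while the heavy chain Myh9 gave -0.68 and was not called. Of 3 tested cysteine-rich LIM genes 2 were called higher and the third, Csrp2, gave 0.06. Crip2 was 851, 830 and 703 TPM in dormant KO against 12.7, 106 and 83.1 in dormant WT. Of 3 other tropomyosins, Tpm1 (-1.23 ± 0.180) and Tpm3 (-1.09 ± 0.254) were called lower, whereas Tpm2 was not called and its difference had the opposite sign (2.58 ± 1.09), with the libraries of the groups apart. Of 9 tested capping and severing genes 3 were called lower and 1 higher (Add3, 3.48), and of 18 crosslinkers and membrane linkers 4 were called lower and 2 higher (Lcp1, 3.11, and Ezr, 2.28). The other 5 and 12 were not called. Capg, which caps filament ends, was 120.1, 175 and 120.8 TPM in dormant KO against 1182, 1168 and 800.2 in dormant WT, 7.53-fold lower (limma, adjusted p = 1.4e-06). Flna, the crosslinker filamin A, fell by 2.63 ± 0.445 and Twf1, the monomer-binding twinfilin 1, by 2.36 ± 0.270. The Arp2/3 complex, which branches filaments, had 1 of 9 subunits called (Arpc5l, 1.17 ± 0.348). After median-ratio scaling 6 of the 98 pathway genes were called lower in place of 12.

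**Figure D5:**
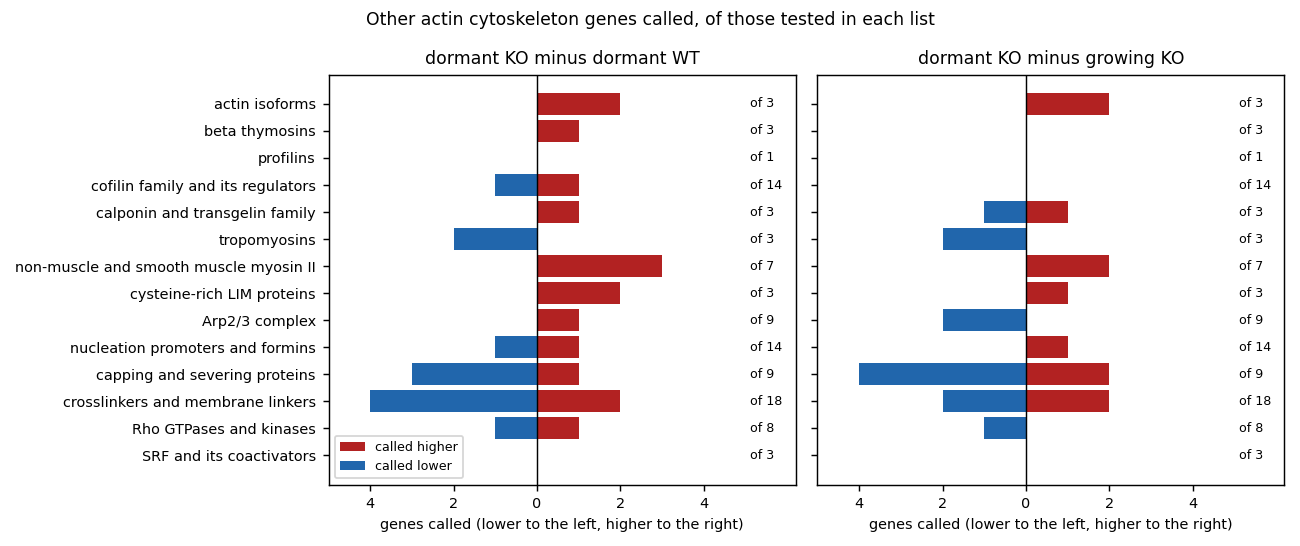
Number of other actin cytoskeleton genes called higher (red, to the right) and lower (blue, to the left) in each of 14 lists, with the number tested beside each bar. In dormant KO against dormant WT the 3 myosin II calls are all higher and the 2 tropomyosin calls both lower, and against growing KO capping and severing proteins hold 4 lower and 2 higher calls of 9 tested.

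Each other comparison of groups called fewer of the listed genes. Dormant KO against growing KO called 11 of 98 higher and 12 lower, where 8.31% and 9.48% of all genes were, so these shares lay near those of all genes. Leaving out 1 library gave 7 to 9 higher and 7 to 13 lower, with 7 higher without dormant KO library 3 and 7 lower without growing KO library 3. The calls were led by Tagln (5.25), Myl9, a smooth muscle light chain (3.58), and Crip2 (3.56) above and by Anln, the cytokinesis protein anillin (-3.12), Capg (-2.76) and Flna (-2.17) below. Tagln passed the filter only through dormant KO, as said above. After median-ratio scaling the same comparison called 23 higher and 5 lower, and after quantile normalization 17 and 7. Growing KO against growing WT, where 0.715% of all genes were called higher, called only Arpc1b, an Arp2/3 subunit, at 214, 277 and 238 TPM against 83.7, 102 and 104 (1.32 ± 0.245, limma adjusted p = 0.025). No fit that left out 1 growing library kept that call. Dormant WT against growing WT called 1 higher and 4 lower of 98, where 1.85% and 5.67% of all genes were, again shares near those of all genes. Iqgap1, a scaffold that binds actin, was 64.5, 75.8 and 97.0 TPM in dormant WT against 15.2, 15.6 and 13.2 in growing WT (2.34 ± 0.352, limma adjusted p = 0.0022). The lower genes were Tmsb15b1, at 5.37, 18.6 and 7.54 TPM in growing WT but listed at 0 in each dormant WT library, Tesk2, also listed at 0, the Arp2/3 subunit Arpc5l (-1.68 ± 0.348) and the calponin Cnn3 (-1.09 ± 0.299). Tesk2 reached 1 TPM only in growing WT (1.23, 1.92 and 4.27), so it passed the filter through that group and its call lends no support. Without dormant WT libraries 1, 2 and 3 in turn the lower calls numbered 10, 9 and 6 and the higher calls 2, 2 and 5. Without growing WT libraries 1, 2 and 3 in turn the lower calls numbered 2, 1 and 1, with 1 higher in each.

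The genes most like Actb and Crip1 over the 12 libraries were sought among 5692 tested genes with a mean of at least 10 TPM, by Pearson r of log2(TPM + 1). Those most like Actb were Tes (r = 0.992), an actin-associated LIM protein, Bcat1 (0.980), Lxn (0.979), Plk2 (0.973) and Psmd10 (0.971). Tes was 632, 793 and 519 TPM in dormant WT and 21.5, 30.3 and 37.4 in dormant KO, with 301 to 401 in growing libraries. Those most like Crip1 were S100g (r = 0.994), Lypd2 (0.993), Cxcl15 (0.992), Sfta2 (0.991) and Ighg1 (0.990). S100g, Sfta2 and Ighg1 were listed at 0 in the 9 libraries outside dormant KO, and S100g was 111.3, 65.8 and 76.6 TPM there. Cxcl15 and Sfta2 are known from lung epithelium and Ighg1 encodes an immunoglobulin heavy chain. The 12 points are 3 libraries in each of 4 groups that share host and batch, so r here describes the contrast of dormant KO with the rest.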

How the data were processed

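Reads were trimmed by the authors (cutadapt 1.18), mapped to mm10 (STAR 2.5.2b) and turned into gene levels (RSEM 1.3.3, versions from the submitters' processing notes). The deposited values are TPM, with the same total in each library. TPM keeps no depth, so depth is unknown, no counting interval was computed, and precision is the spread between 3 libraries. The methods name Smart-seq2 and the labels a TruSeq kit, and RSEM divides shared reads by estimate. Another 30 per-sample columns matched no labelled sample and were left out.

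Since TPM are not counts, DESeq2, used by the authors, was replaced by limma 3.58.1 (R 4.3.3, eBayes with trend) on log2(TPM + 1) over all 12 libraries (1 mean per group, 8 residual degrees of freedom). Genes reaching a TPM of 1 in 3 or more libraries were tested. A gene was called at a Benjamini-Hochberg adjusted p of at most 0.05 over all tested genes and a log2 difference of at least 1, two-sided. This scale makes fold changes of low genes too small. The script was tested on simulated data. The members and lists were chosen with earlier results of these data known. Named pathway genes were up to 3 higher and 3 lower per comparison with the largest difference and no overlap of libraries, and list members given beside them were chosen after their values were seen. Alternatives were other pseudocounts, filters, scalings, sample weights, a replicate block, only the groups compared, and leaving out each library.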

Additional observations from a re-analysis of the deposited data

Results flagged for a closer look

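For 5 genes the dormant against growing difference was not the same in KO and WT hosts by the interaction test in limma, with 3 libraries in each of the 4 groups and host and library batch being the same split. For Crip1 the difference in KO hosts exceeded that in WT hosts by 3.42 on the log2 scale, and for Tagln2 by 1.96, a call lost in 9 of 20 alternatives. For Myl6 it did so by 1.28 (adjusted p = 6.4e-04 by limma) and for Tmsb4x by 1.21 (adjusted p = 0.0017), the latter not called after quantile normalization (0.58). For Actb it was lower, at -2.005, with the dormant libraries below the growing ones in KO hosts and above them in WT hosts. The dormant KO libraries, which enter all 5 differences, also carried the high alveolar, mesothelial and erythroid marker levels given above, whose part was not tested. For Tagln2 the libraries set apart were those of dormant WT (24.6, 51.3 and 75.8 TPM). These had 11325 to 13242 genes above 0, fewer than the other groups, and the part of that was not tested either.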

How the results depend on the processing

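Of 800 values for 50 results of the 10 genes under the alternatives, 750 kept direction and side of the threshold, 22 lost a call, 9 gained one and 19 turned in sign, all of the last between small, uncalled differences. Tmsb4x stayed called in the 4 comparisons of groups under every alternative run for them, as did Crip1 in both comparisons of dormant KO. After median-ratio scaling the turned values were 0.092 and 0.46 for Tmsb10 in dormant KO against dormant WT and against growing KO, Tagln2 0.38 in the latter, Crip1 0.062 in dormant WT against growing WT and Cfl1 0.11 in the interaction. After quantile normalization they were Crip1 -0.026 in growing KO against growing WT, Actg1 0.051 in dormant WT against growing WT, and Tmsb10 0.004 and Tagln2 0.20 in dormant KO against growing KO. With sample weights Tagln2 gave 0.012 in growing KO against growing WT. Leaving out 1 library gave ranges in growing KO against growing WT of -0.068 to 0.15 for Actb, -0.14 to 0.11 for Tagln2 and -0.024 to 0.029 for Crip1, and of -0.18 to 0.17 for Crip1 in dormant WT against growing WT. The number of the 10 genes called in growing KO against growing WT was 1 in place of 2 with a pseudocount of 5 and after median-ratio scaling (Tmsb10 -0.998 in both), and 1 to 2 when 1 library was left out. In dormant KO against growing KO it was 3 in place of 6 after median-ratio scaling. Dormant and growing libraries of 1 host were also compared by the correlation of their deviations from the group mean. In KO hosts it was 0.021, 0.019 and 0.011 for the same replicate number and -0.018 to -0.001 for different numbers. In WT hosts it was -0.01, -0.012 and 0.014 for the same number and -0.011 to 0.019 for different numbers. All of these were small, and the labels do not state whether such libraries came from the same mice. With the replicate block, dormant KO against dormant WT called 1589 genes higher and 1133 lower in place of 1677 and 1221 (831 and 587 with sample weights, which also gave 296 and 220 in place of 93 and 34 in growing KO against growing WT, 67 and 243 in place of 240 and 737 in dormant WT against growing WT, 2182 in place of 1233 lower in dormant KO against growing KO, and 475 in place of 803 higher in the interaction, so the shares of all genes shift with them), and Tagln2 was 1.96 in the interaction with adjusted p = 0.052 by limma, so that call was lost, as it was without the filter (adjusted p = 0.063), and the block changed no other call of the 10 genes. Where no cause is shown by the construction of the alternative, the cause was not tested. Among the 98 listed genes, growing KO against growing WT called 5 higher and 1 lower with sample weights or only the groups compared, against 1 and 0, and dormant KO against growing KO called 7 higher, against 11, with a pseudocount of 0.1. Depth is unknown, so low levels are limited by an unknown amount.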
